A study of Mus musculus with 28 samples.

Results

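Distal enhancers with weak Brg1 evidence were those at which a FLAG-tagged Brg1 region was called in at least 1 replicate but at which the replicates did not share a region. Regions enriched for H3K27ac in both control replicates were merged when they shared at least 1 bp, and 13914 of the merged regions lay more than 2.5 kb from every annotated TSS. Of these distal regions, 2045 (14.7%) overlapped a FLAG region of some replicate and no merged FLAG region present in 2 or more of the 3 replicates. They are called members below. Another 1058 distal regions (7.60%) overlapped a merged FLAG region present in 2 or more replicates and are called Brg1-bound, and the remaining 10811 (77.7%) overlapped no FLAG region. The members were therefore chosen by measured values, those of the FLAG lists and of the control H3K27ac lists, and the values of these lists are given as a description only.

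Brg1, encoded by *Smarca4*, is an ATPase of the BAF chromatin remodeling complexes, which move and evict nucleosomes. Enhancers are stretches of regulatory DNA that act on promoters at a distance, and acetylation of histone H3 at lysine 27 (H3K27ac) marks those that are active. H3K27me3, the methylated form of the same residue, is deposited by the Polycomb repressive complex PRC2, of which Suz12 is a core subunit, and accompanies gene silencing. ChIP-seq sequences the DNA that an antibody recovers with a protein or a histone mark, and a region is called where reads exceed those of input chromatin.

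Mouse embryonic stem cells (ESCs) carrying floxed *Brg1* alleles and an actin-driven CreER (Brg1f/f;Actin-CreER) were grown as embryoid bodies for 2 days, then exposed to VEGF, Activin A and BMP4 for 40 h and collected at day 4 as mesoderm precursors. Control cultures received the vehicle tetrahydrofuran (THF) from day 2. Treated cultures received 200 nM 4-hydroxytamoxifen (4-OHT) in THF, which lets CreER delete *Brg1*, so both conditions share the floxed alleles and the CreER. Because 4-OHT was added together with induction, the study describes the protein as lost gradually. It proposes that residual Brg1 activity might account for marker expression that remained. A region still called after 4-OHT is thus not shown to be kept without Brg1. The data used here were 2 control and 2 4-OHT lists for H3K27ac, 3 and 3 for H3K27me3, 2 and 2 for Suz12, and 3 lists for FLAG. The sample labels give the FLAG cells the same Brg1f/f;Actin-CreER genotype and 3 replicates, whereas the study's methods describe ESCs with a FLAG tag at the endogenous *Brg1* locus and duplicates, and all 3 lists were used.

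Each list gives only the position of its regions, in steps of 25 bp, so read depth is unknown. FLAG replicates 1 and 2 listed 8021 and 8257 regions, but replicate 3 listed 192. The H3K27ac lists held 37590 and 41062 regions in the controls and 36000 and 32161 after 4-OHT, covering 28.0, 30.8, 28.5 and 26.1 Mb, so the genome-wide totals of the conditions overlapped. In both control lists H3K27ac lay within 2.5 kb of a TSS of 7 of 8 mesoderm precursor markers, including *T*, *Eomes*, *Mixl1* and *Mesp1*, and of 0 of 3 neural markers. The exception among the 8 was *Kdr*. The cultures were assayed in bulk, so fewer cells carrying a mark and less of the mark in each cell cannot be told apart.

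The sequences below show what such a FLAG region looks like at the loci the results return to, which are the retinoic acid enzymes *Cyp26a1* and *Cyp26c1*, the VEGF receptor *Kdr*, the chemokine receptor *Cxcr4*, the Wnt ligand *Wnt5a* and the T-box factor *Eomes*. Each is a called FLAG region inside a member, read from the plus strand of the mm9 genome. Capitals mark matches on either strand to the short motifs searched, and the motif follows in the text.
*Kdr* FLAG replicate 1, chr5:76326176-76326350: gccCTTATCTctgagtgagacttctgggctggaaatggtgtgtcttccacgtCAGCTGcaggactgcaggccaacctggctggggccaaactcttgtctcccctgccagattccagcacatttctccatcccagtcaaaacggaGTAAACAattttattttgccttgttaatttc
*Kdr* FLAG replicate 1, chr5:76408801-76408925: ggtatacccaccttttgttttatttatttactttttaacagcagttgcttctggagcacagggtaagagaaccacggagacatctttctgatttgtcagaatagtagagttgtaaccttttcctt
*Cyp26c1* FLAG replicate 1, chr19:37733426-37733700: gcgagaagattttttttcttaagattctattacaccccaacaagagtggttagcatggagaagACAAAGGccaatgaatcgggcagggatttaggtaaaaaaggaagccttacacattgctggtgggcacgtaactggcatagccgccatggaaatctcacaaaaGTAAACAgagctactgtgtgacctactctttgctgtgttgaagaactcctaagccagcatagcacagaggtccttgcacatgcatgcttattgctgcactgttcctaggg
*Cyp26c1* FLAG replicate 2, chr19:37733951-37734200: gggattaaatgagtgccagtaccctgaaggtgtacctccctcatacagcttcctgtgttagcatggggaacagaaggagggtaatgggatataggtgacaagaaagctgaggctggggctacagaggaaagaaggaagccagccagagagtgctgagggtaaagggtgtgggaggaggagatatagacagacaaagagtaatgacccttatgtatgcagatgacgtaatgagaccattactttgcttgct
*Cyp26a1* FLAG replicate 1, chr19:37790376-37790475: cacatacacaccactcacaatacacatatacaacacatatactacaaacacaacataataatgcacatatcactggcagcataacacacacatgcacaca
*Cyp26a1* FLAG replicate 2, chr19:37790901-37791125: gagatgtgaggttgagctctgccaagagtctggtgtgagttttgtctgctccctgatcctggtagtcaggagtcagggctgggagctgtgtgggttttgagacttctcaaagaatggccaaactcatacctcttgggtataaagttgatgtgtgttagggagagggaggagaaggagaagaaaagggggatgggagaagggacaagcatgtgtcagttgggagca
*Eomes* FLAG replicate 1, chr9:118324851-118325050: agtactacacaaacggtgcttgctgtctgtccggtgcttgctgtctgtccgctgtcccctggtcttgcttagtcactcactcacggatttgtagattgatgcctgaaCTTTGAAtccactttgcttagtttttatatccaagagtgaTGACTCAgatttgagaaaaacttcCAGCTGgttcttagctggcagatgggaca
*Wnt5a* FLAG replicate 2, chr14:29230626-29230725: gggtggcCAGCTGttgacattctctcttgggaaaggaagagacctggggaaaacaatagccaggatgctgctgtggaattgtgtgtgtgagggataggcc
*Wnt5a* FLAG replicate 1, chr14:29230726-29230800: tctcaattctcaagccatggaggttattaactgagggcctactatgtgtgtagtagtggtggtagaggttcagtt
*Cxcr4* FLAG replicate 2, chr1:130659351-130659425: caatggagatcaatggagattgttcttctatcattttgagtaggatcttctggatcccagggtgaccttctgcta
*Cxcr4* FLAG replicate 1, chr1:130659426-130659525: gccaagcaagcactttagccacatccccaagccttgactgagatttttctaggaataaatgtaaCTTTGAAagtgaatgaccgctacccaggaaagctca
*Sulf1* FLAG replicate 2, chr1:12682126-12682200: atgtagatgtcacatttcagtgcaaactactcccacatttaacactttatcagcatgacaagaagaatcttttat
*Sulf1* FLAG replicate 1, chr1:12682201-12682375: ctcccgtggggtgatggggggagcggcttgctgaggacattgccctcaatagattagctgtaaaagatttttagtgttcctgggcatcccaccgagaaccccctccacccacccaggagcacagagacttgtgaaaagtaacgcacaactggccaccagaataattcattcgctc

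In the first *Kdr* region the capitals are a GATA match (AGATAAG), an E-box (CAGCTG) and a forkhead match (TGTTTAC). The first *Cyp26c1* region held a Sox match (ACAAAGG) and a forkhead match. The *Eomes* region held a Tcf/Lef match (CTTTGAA), an AP-1 match (TGACTCA) and an E-box. The *Wnt5a* region of FLAG replicate 2 held an E-box, and the *Cxcr4* region of FLAG replicate 1 a Tcf/Lef match. The other regions printed held none of the 15 motifs. At *Wnt5a*, *Cxcr4* and *Sulf1* the regions of replicates 1 and 2 ended and began at neighbouring bases. They touch but share no base, and so did not make a Brg1-bound region.

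FLAG evidence at the members was short and came mostly from a single replicate. Both traits follow in part from the rule. It leaves out enhancers where FLAG regions of 2 replicates share a base, which wide FLAG regions do more easily. Replicate 1 alone gave 791 members, replicate 2 alone 956 and replicate 3 alone 1, which lay in *Frzb*, a secreted Wnt antagonist. Replicates 1 and 2 both had regions in 296 members, at separate places, and replicates 2 and 3 in 1, near *Fkbp4*. A single FLAG region was called in 1591 members (77.8%) and 2 in 347. The median FLAG region in a member was 100 bp wide in replicate 1 (1204 regions) and 100 bp in replicate 2 (1439 regions), against 200 and 250 bp for the regions of these replicates in Brg1-bound enhancers. Regions of 25 bp, the narrowest that the lists hold, made up 22.5% and 22.1% of those in members against 6.14% and 3.95% of those in Brg1-bound enhancers. In 359 members (17.6%) the widest FLAG region was 25 bp.

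The 297 members with regions of 2 replicates were near to meeting the rule for a Brg1-bound region. The median gap between the nearest regions of different replicates was 175 bp (interquartile range 50 to 425), it was at most 200 bp in 158 members (53.2%), and in 35 the regions touched. Just outside the class on the other side, 62 distal regions without a FLAG region had one within 100 bp of their edge. Merging FLAG regions that touch, an alternative added after the data were seen, left 2009 members, and merging those within 200 bp left 1878.

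**Figure D1:**
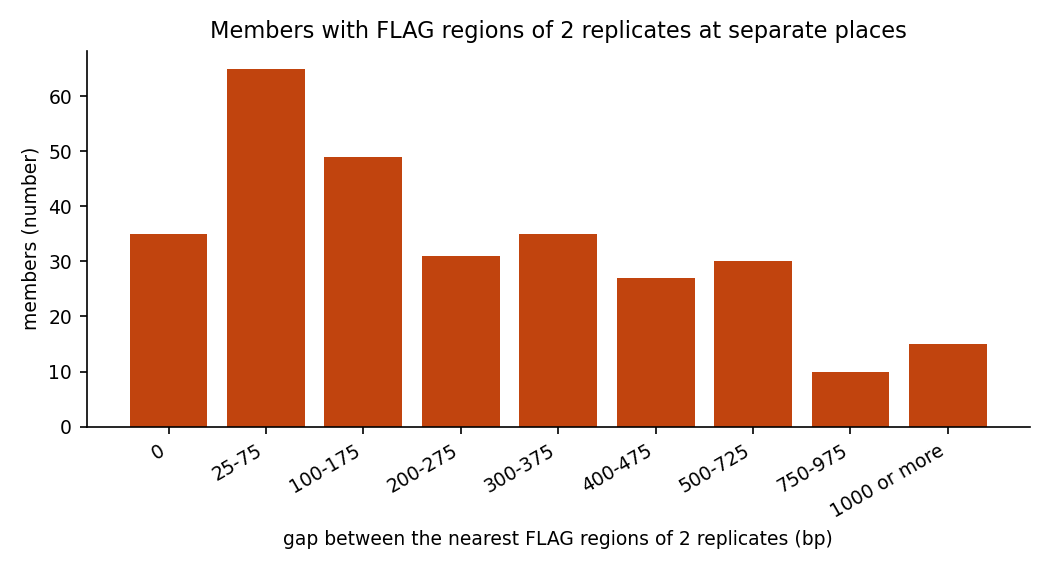
Number of members (vertical axis) by the gap in bp between the nearest FLAG regions of 2 different replicates (horizontal axis), for the 297 members with regions of 2 replicates. The regions touched in 35 members, and the gap was 1000 bp or more in 15.

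The distance rule had a sharp limit as well. The members nearest to it were 2510 bp from a TSS at *Sesn2*, 2513 bp at *Dydc2* and 2524 bp at *Arl4d*, and regions that met the other rules lay 2472 bp away at *Igfn1* and 2440 bp at *Pear1*. In 4-OHT replicate 1 the 3 members were called over 3875, 1525 and 350 bp, and both regions under the limit over 0 bp. In 4-OHT replicate 2 the regions under the limit were called over 0 and 50 bp. These regions are too few to compare the 2 sides of the limit. With the limit at 1 kb there were 2231 members, and H3K27ac was still called after 4-OHT at a mean of 58.7% of them. This share was 57.8% at 2.5 kb, and 56.4% of 1837 members at 5 kb.

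Members were wider than enhancers without a FLAG region and narrower than Brg1-bound enhancers. The rule asks for 1 bp of overlap, which a wide region meets more easily. How much of the order in width comes from the rule was not tested. The median width of the merged control H3K27ac region was 1275 bp for members, 600 bp without FLAG and 1700 bp for Brg1-bound enhancers. Members lay in introns in 842 cases (41.2%), over an exon in 135 (6.60%) and between genes in 1068 (52.2%), against 41.9%, 6.63% and 51.5% of all distal regions. The median distance to the nearest TSS was 22.1 kb against 18.2 kb for all distal regions. A Brg1-bound region lay within 10 kb of 263 members (12.9%), against 7.17% of enhancers without FLAG. On the autosomes members were between 12.4% and 18.3% of the distal regions of each chromosome, and on the X chromosome 4 of 237 (1.69%), where the FLAG replicates listed 26, 19 and 2 regions.

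The base composition and motif content of members were close to those of the other distal regions. In the central 300 bp the median GC content was 48.3% in members and 47.7% in all distal regions. Of the 15 motifs, searched on both strands with overlapping matches allowed, T-box (AGGTGTGA) was found in 2.25% of members and 1.70% of all distal regions. The GATA motif AGATAAG was found in 6.31% and 5.32%, Zic (CAGCAGG) in 14.1% and 12.6%, and Sox (ACAAAGG) in 10.4% and 9.25%. AP-1 (TGACTCA) was found in 7.38% of members against 9.21% of all distal regions and 9.81% of those without FLAG. Forkhead (TGTTTAC) was found in 4.69% of members, 4.40% of all distal regions and 6.24% of Brg1-bound enhancers. The E-box CAGCTG was found in 18.3% of members and 17.3% of all distal regions, the Tcf/Lef motif CTTTGAA in 9.78% and 8.52%, and the Tead motif GGAATG in 17.8% and 17.1%. The octamer ATGCAAAT was found in 2.89% and 2.36%, the Foxh1 motif AATCCACA in 2.54% and 2.14%, and the Sp/Klf motif GGGGCGGGG in 2.30% and 1.79%. The CTCF core motif CNAGGGGGC, the Ets motif ACTTCCGG and the Smad motif GTCTAGAC were each found in at most 1.17% of members. In a window centred on the FLAG region the members' shares were 1.52% for T-box, 4.65% for GATA, 11.4% for Zic and 6.45% for AP-1, each lower than at the centre of the acetylated region. A match is a description of the sequence and not evidence of binding.

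The question put to the 4-OHT lists, which the rule did not use, was whether H3K27ac was still called at these enhancers after *Brg1* deletion. A region of 4-OHT replicate 1 overlapped 1105 members (54.0%, 95% exact binomial interval 51.8 to 56.2), against a background of 59.8% of all distal regions. A region of 4-OHT replicate 2 overlapped 1258 members (61.5%, interval 59.4 to 63.6), against 62.3%. The mean was 57.8% ± 5.29 (SD, n = 2). This share rests on an overlap of 1 bp, and it was 34.1% when at least 50% of the control region had to be covered. Both lists held 1044 members, neither held 726 (35.5%), replicate 1 alone held 61 and replicate 2 alone 214. The share of all distal regions missing from both was 33.1%, so the share of members lost lay near the background. Intervals cover counting error only, and regions are not replicates.

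Comparison at equal width gave another picture, since wide regions were more often still called and members were wide. The 13914 regions were parted into 10 groups by width, and the share of members still called was set against the share of enhancers without FLAG in the same group. The difference, members minus enhancers without FLAG, was -17.5 percentage points in 4-OHT replicate 1 and -12.7 in replicate 2 (mean -15.1 ± 3.44, SD, n = 2), and members were lower in 10 and 9 of the 10 groups. Before the grouping the differences were -6.45 and -0.0233 points. Against Brg1-bound enhancers the difference within width groups was 0.143 and 0.326 points, with members lower in 5 of 10 groups in both replicates, whereas before the grouping it was -10.3 and -9.47. At 575 to 700 bp, for example, 29.6% and 40.8% of 169 members, 18.3% and 36.7% of 60 Brg1-bound enhancers and 59.2% and 63.4% of 1135 enhancers without FLAG were still called. At 2075 bp and above the shares were 90.4% and 95.2% of 436 members, 94.5% and 97.8% of 400 Brg1-bound enhancers and 92.8% and 94.6% of 552 without FLAG. No test was made over regions. With 2 replicates a condition, the SD given is the spread between the 2 4-OHT lists only. Variation between the control lists and between the FLAG lists, which chose the regions, is not in it.

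**Figure D2:**
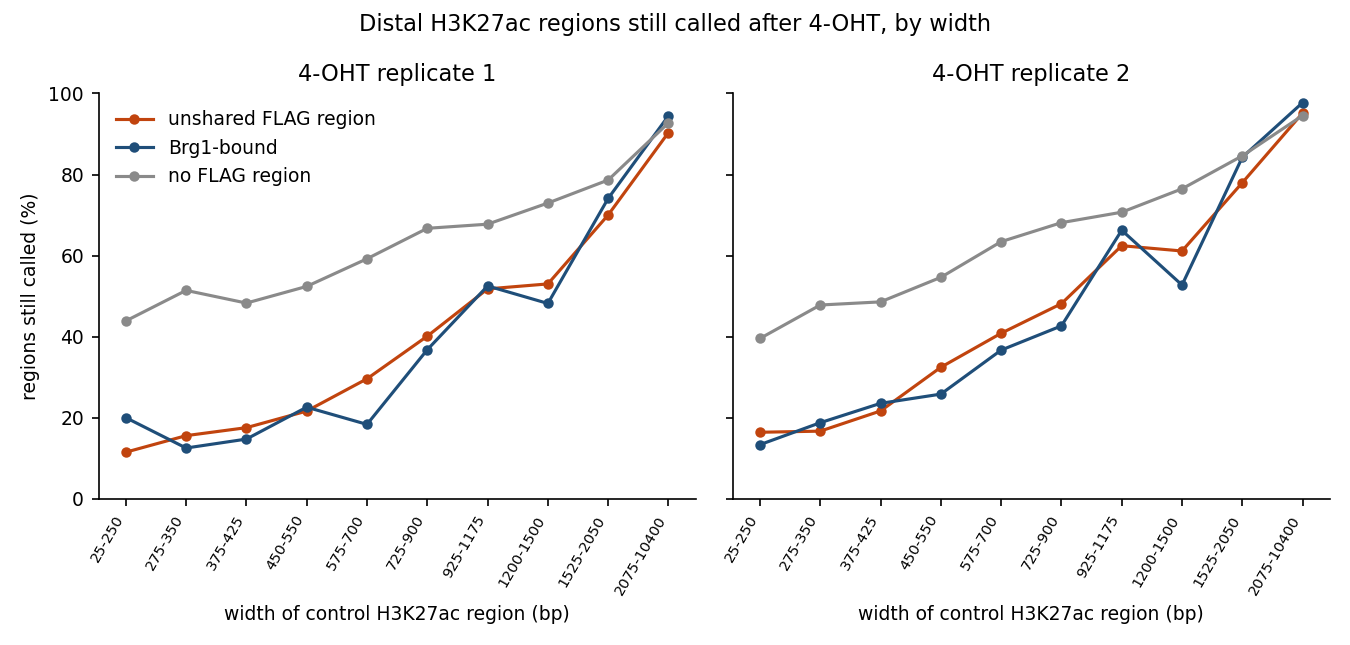
Percent of distal control H3K27ac regions overlapped by a region of 4-OHT replicate 1 (left) or 2 (right), by width of the control region in bp, for members (unshared FLAG region), Brg1-bound enhancers and enhancers without a FLAG region. Each point is 1 class in 1 width group, with no error bar. Members followed Brg1-bound enhancers and lay under enhancers without FLAG in all groups except the widest in replicate 2.

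All but 2 of the members fell into 3 sets by the replicates that gave their FLAG region. Members with regions of both replicates 1 and 2 had a median width of 1775 bp, against 1200 bp for replicate 1 alone and 1125 bp for replicate 2 alone. Here too a wide region has more room for FLAG regions of 2 replicates. Of these 296 members 69.9% and 75.3% were still called in the 4-OHT replicates, against 51.7% and 60.8% for replicate 1 alone and 51.0% and 57.8% for replicate 2 alone. Within width groups the mean differences from enhancers without FLAG were -8.61 ± 1.59, -15.4 ± 4.59 and -16.8 ± 3.06 points (SD, n = 2) in this order. The share still called differed less with the width of the FLAG region itself. It was 51.5% and 60.2% for members whose widest FLAG region was 25 bp, and 56.1% and 66.2% for those with one of 200 bp or more.

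Because members had to be called in both controls, control values are high by choice. A comparison that did not use 1 of the control lists was therefore made. The FLAG lists, whose labels name no 4-OHT dose, still chose the regions, so the unused control can also be high by choice. Of 2077 distal regions of control replicate 1 chosen by the same FLAG rule, 98.4% were called in control replicate 2, which was not used, and 54.4% and 60.9% in the 4-OHT replicates. Of 17878 regions of this replicate without FLAG, 70.9% were called in control replicate 2 and 56.6% and 52.4% in the 4-OHT replicates. Starting from control replicate 2, 78.3% of 2591 regions with unshared FLAG were called in control replicate 1 and 42.6% and 48.9% after 4-OHT. The corresponding shares of 20456 regions without FLAG were 56.8%, 38.6% and 39.2%. The mean share of the 4-OHT lists minus that of the unused control was -40.8 and -32.6 percentage points for regions with unshared FLAG, and -16.4 and -18.0 points for those without. The regions with unshared FLAG were wider, with medians of 700 and 850 bp against 250 and 275 bp. Within width groups this change still differed from that of regions without FLAG, by -27.8 points from control replicate 1 and by -9.00 points from control replicate 2. The share in the unused control itself differed by 10.7 and -2.93 points. The shares in the 4-OHT lists differed by -20.8 and -13.4 points from control replicate 1, and by -13.4 and -10.5 from control replicate 2. For Brg1-bound regions the change was -32.1 and -27.2 points, and within width groups it differed from regions without FLAG by -21.0 and -4.90. By length, 95.3% of the bases of the regions with unshared FLAG chosen in control replicate 1 were covered in control replicate 2, and 56.9% and 62.7% in the 4-OHT replicates. For those chosen in control replicate 2 the shares were 71.7% in control replicate 1 and 39.7% and 46.0% after 4-OHT.

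**Figure D3:**
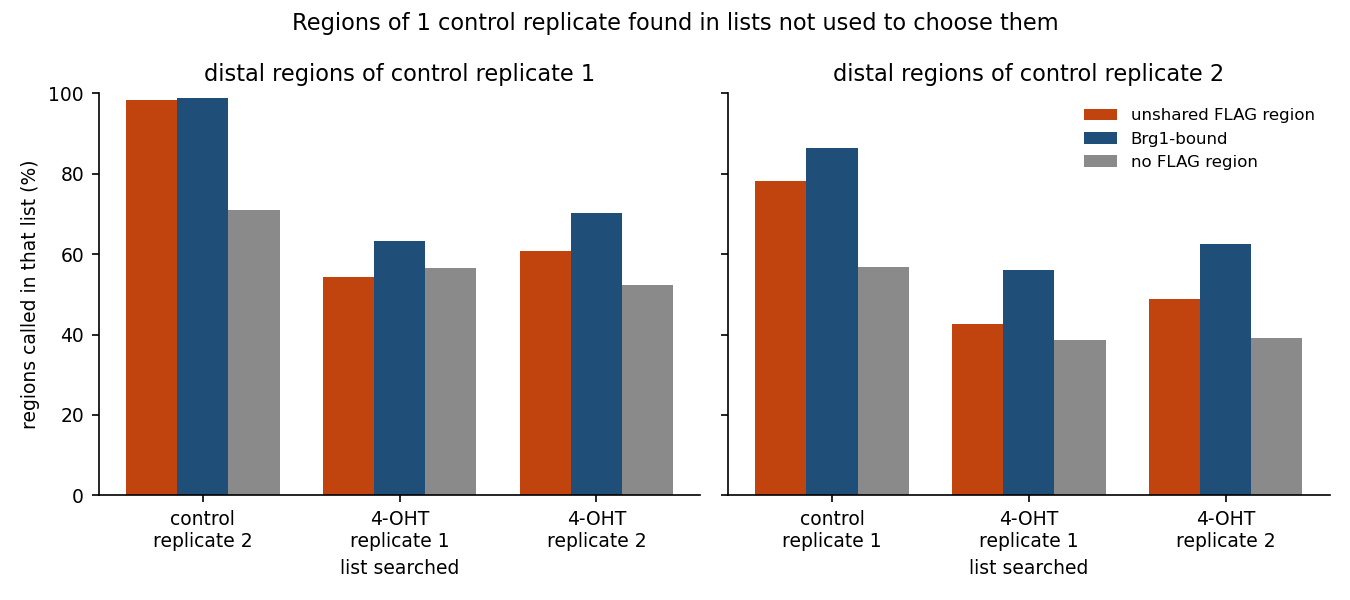
Percent of the distal regions of control replicate 1 (left) or 2 (right) that were called in the control list not used to choose them and in each 4-OHT list, for regions with an unshared FLAG region, Brg1-bound regions and regions without FLAG. Bars are single shares with no error bar. With unshared FLAG the bars fell from 98.4% to 54.4% and 60.9% (left) and from 78.3% to 42.6% and 48.9% (right).

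The opposite direction was asked of the 10785 distal regions called in both 4-OHT lists. Of these, 1028 had an unshared FLAG region, and 0 of the 1028 were missing from both control lists, which allows a share of up to 0.292%. The same count was 0 of 643 Brg1-bound regions (up to 0.467%) and 1364 of 9114 (15.0%) without FLAG. Regions without FLAG were narrower here too, with a median of 575 bp against 1125 bp with unshared FLAG and 1450 bp for Brg1-bound regions. Within width groups the share missing from both controls differed from that of regions without FLAG by -7.56 points with unshared FLAG and by -6.425 points for Brg1-bound regions. The limits treat regions as independent. The FLAG labels name no 4-OHT dose, so a region acetylated only after 4-OHT may seldom enter the FLAG classes. No conclusion is drawn from the counts of 0.

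The length covered by H3K27ac inside members is a description only, because the control lists drew the outline of each member and a 4-OHT region was measured inside it. Control values are therefore high by choice, here and at the single members below. Over the 2045 members the covered length was 2.31 and 2.92 Mb in the controls and 1.28 and 1.46 Mb after 4-OHT. The ratio of the means was 0.524, against 0.566 for Brg1-bound enhancers and 0.636 without FLAG. Both 4-OHT replicates covered less than both controls at 1592 members (77.8%), against 60.1% of all distal regions and 79.9% of Brg1-bound enhancers. Both covered more than both controls at 12 members (0.587%), against 2.91%. The median log2 ratio of 4-OHT to control covered length, with 25 bp added to each mean, was -2.03 for members, -1.36 for Brg1-bound enhancers and -0.92 without FLAG. The order of the first 2 did not hold at equal width, where the median of Brg1-bound enhancers was below that of members in 7 of the 10 width groups, equal to it in 2 and above it in 1. At the FLAG regions of replicate 1 inside members, 81.3% and 95.2% of the bases carried H3K27ac in the controls and 39.7% and 49.2% after 4-OHT. For FLAG replicate 2 the shares were 84.0%, 94.8%, 41.6% and 48.2%.

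Each member was assigned to the protein-coding gene with the nearest TSS, which gave 1493 genes. Of these genes 330 (22.1%) were also nearest to a Brg1-bound enhancer, against 827 of the 5869 genes nearest to any distal region. A single member was assigned to 1119 genes. *Auts2* was nearest to most, with 9 members among 21 distal regions. All 9 lay in its introns and 7 were in neither 4-OHT list, where 33.1% of all distal regions were in neither. *Cadm1*, a cell adhesion molecule, had 6 members and 4 in neither list. *Gse1* also had 6, of which 1 was in neither list, and *Msi2*, an RNA-binding protein of stem cells, had 6 that were each called in at least 1 list. *Cdh4*, a cadherin, had 5, as did 10 other genes including *Cxcr4*, *Jarid2*, *Smad1* and *Sox4*. *Cadm1*, *Gse1* and *Msi2* each had 20 distal regions. The counts for single genes are small, were not compared at equal width and were not tested.

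Lists of developmental genes, chosen with earlier results of these data known, differed in how many of their members were still called. Transcription factors of the primitive streak and mesoderm had 29 members of 116 distal regions (25%) at 14 of 27 genes, against 14.7% members among all distal regions. The share was as high at other lists, at 26.3% for Notch and segmentation genes, 25% for blood and endothelial regulators and 24.3% for Wnt pathway genes. It was 10% at cardiac genes (1 of 10 distal regions) and BAF subunits (2 of 20), and 4.76% at housekeeping genes (1 of 21). These 3 counts are too small to be called below the background. The remaining lists lay above it, from 16.3% for epithelial to mesenchymal transition, adhesion and matrix to 21.7% for endoderm factors. Among all distal regions the share rose with H3K27ac width, from 4.17% of the narrowest width group to 31.4% of the widest. The lists were not compared at equal width. Of the 29, 17 and 19 were called in the 4-OHT replicates and 10 in neither. Blood and endothelial regulators had 9 members at *Cdh5*, *Flt1*, *Kdr*, *Lmo2* and *Runx1*, of which 7 were in neither 4-OHT list. Genes of cell migration signals had 16 members with 8 in neither list, Wnt pathway genes 26 with 11, and Nodal, activin and BMP genes 17 with 5. Notch and segmentation genes had 10 members with 2 in neither list, pluripotency regulators 14 with 3, and receptor tyrosine kinases and their ligands 14 with 3. Genes of the epithelial to mesenchymal transition, adhesion and matrix had 15 with 4, neural and ectodermal regulators 9 with 4, and endoderm factors 5 with 2. Genes of the retinoic acid pathway had 5 with 0 in neither list, BAF subunits 2 with 0 and PRC2 subunits 5 with 1, all 5 at *Jarid2*. Cardiac genes had 1 member, at *Hand2*, and housekeeping genes 1, at *Actb*, and both were called in both 4-OHT replicates. These counts are small and were not tested, and the background missing from both lists was 33.1%.

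**Figure D4:**
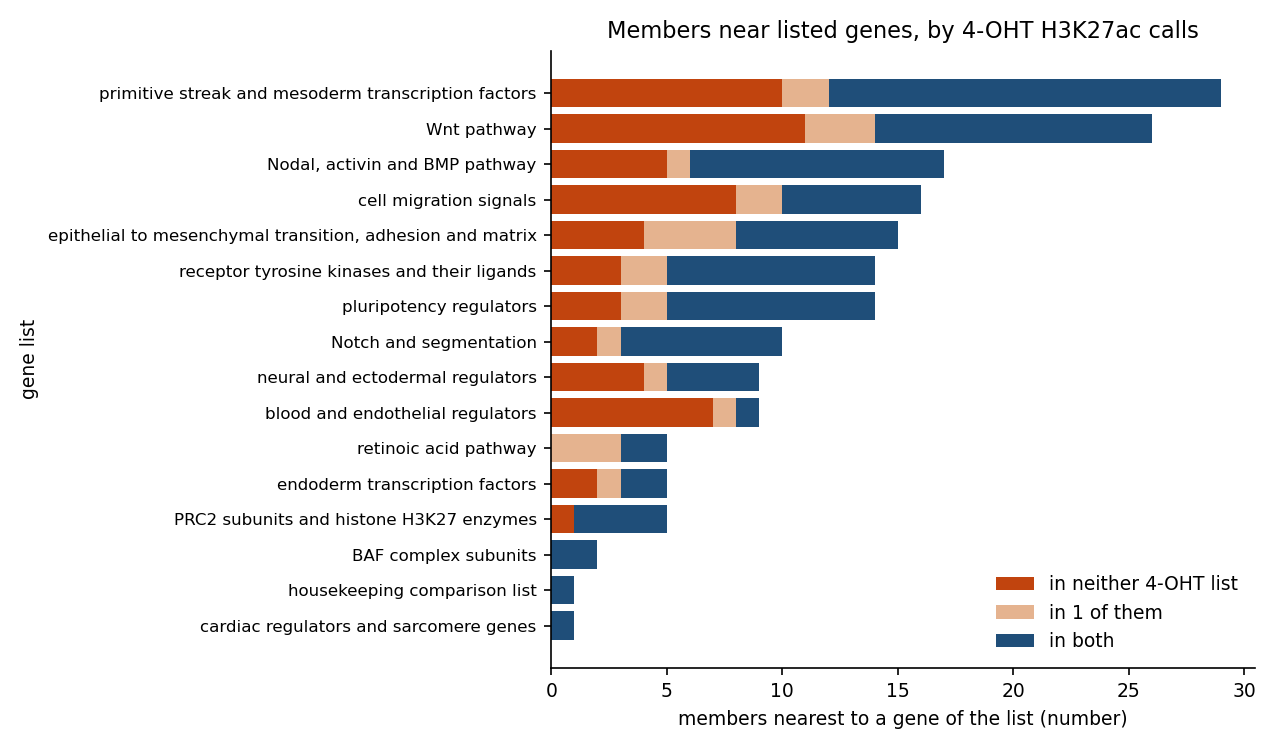
Number of members nearest to a gene of each list (horizontal axis), parted into those in neither 4-OHT list, in 1 of them and in both. Of the 29 members at primitive streak and mesoderm factors 10 were in neither list, and of the 9 at blood and endothelial regulators 7.

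Among mesoderm transcription factors, 4 members were nearest to *Eomes*, which is required for mesoderm and endoderm formation. All 4 are given here, a choice made after their values were seen. The member 60.03 kb upstream at chr9:118324326-118327300, whose FLAG region is printed above, was covered over 1700 and 2975 bp in the controls and 650 and 2125 bp after 4-OHT, so the conditions overlapped. The member 20.8 kb upstream was covered over 725 and 1600 bp in the controls and not called after 4-OHT. Those 92.1 and 98.4 kb upstream were called in all 4 lists, over 1775, 2575, 1400 and 1675 bp and over 800, 1100, 525 and 500 bp. *Msgn1*, a regulator of presomitic mesoderm, had a member 10.1 kb downstream with 2225 and 2950 bp in the controls and 300 and 925 bp after 4-OHT. The widest member near *Snai1*, which represses E-cadherin during gastrulation, lay 23.6 kb downstream and was covered over 3600 and 4525 bp, then 1450 and 3075 bp. At *Msgn1* and *Snai1* both 4-OHT values lay under both controls.

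The members within 100 kb of the TSSs of *Kdr*, *Cyp26a1*, *Has2* and *Sulf1* showed the range from loss to retention. No member lay within 100 kb of the fifth gene examined, *Mesp1*. At *Kdr*, which marks hemangioblast and cardiac precursors, the member at chr5:76408151-76410450, 33.7 kb upstream of the nearest *Kdr* TSS, was covered over 1325 and 2300 bp in the controls, 0 bp in 4-OHT replicate 1 and 275 bp in replicate 2. It lay 2.80 kb from a Brg1-bound region. The member at chr5:76325501-76327300, 47.2 kb downstream, was covered over 600 and 1800 bp in the controls and was not called in either 4-OHT replicate. This member holds the first of the sequences printed above, with the GATA, E-box and forkhead matches, and its nearest Brg1-bound region was 76.9 kb away.

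*Cyp26a1* and *Cyp26c1* encode neighbouring enzymes that degrade retinoic acid. The intergenic member at chr19:37788851-37792100, 16.6 kb downstream of *Cyp26a1*, was covered over 2350 and 3250 bp in the controls and 1500 and 1800 bp after 4-OHT. It held regions of FLAG replicates 1 and 2 that lay 425 bp apart, and a Brg1-bound region 0.95 kb away. The member at chr19:37793976-37795175 was covered over 975 and 1200 bp, then 500 and 775 bp. The member at chr19:37732576-37735125, in an intron of *Exoc6* and 24.9 kb upstream of *Cyp26c1*, was covered over 1300 and 2550 bp in the controls and 0 and 250 bp after 4-OHT. In all 3 both 4-OHT values lay under both controls.

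*Has2* synthesizes hyaluronan, and *Sulf1* edits heparan sulfate at the cell surface. The member 36.5 kb upstream of *Has2* was covered over 825 and 2925 bp in the controls and 0 and 750 bp after 4-OHT. The neighbouring member 46.5 kb upstream was covered over 3875, 3925, 3625 and 3900 bp, so its 4-OHT values overlapped the controls. The member 25.03 kb upstream of *Sulf1* at chr1:12681001-12683600, whose touching FLAG regions are printed above, was covered over 2250 and 2600 bp in the controls and 2125 and 2050 bp after 4-OHT.

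**Figure D5:**
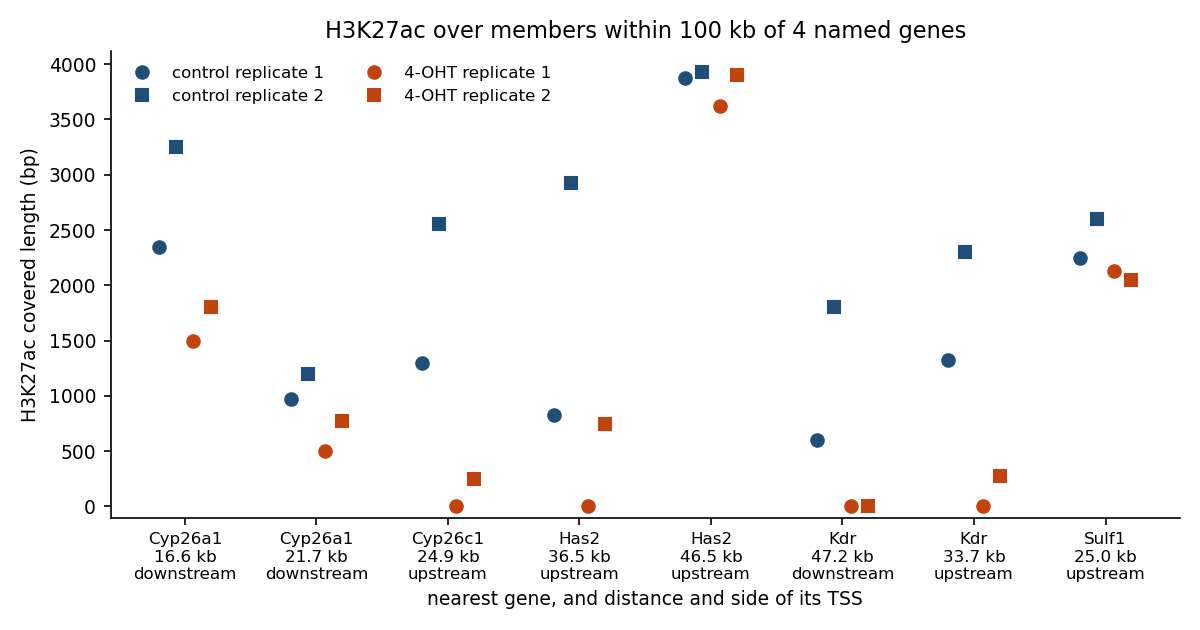
H3K27ac covered length in bp (vertical axis) in each of the 2 control and 2 4-OHT replicates at the 8 members within 100 kb of *Cyp26a1*, *Has2*, *Kdr* and *Sulf1*, with the nearest gene and the distance to its TSS below. The values fall to 0 in both 4-OHT replicates at the *Kdr* member 47.2 kb downstream and stay at 3625 and 3900 bp at the *Has2* member 46.5 kb upstream.

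*Cxcr4*, the receptor for a chemokine that guides migrating mesoderm, had 5 members between 6.48 and 211 kb from its TSS. The member 6.48 kb away was covered over 1450 and 1900 bp in the controls, the one 61.8 kb away over 375 and 650 bp, and the one 169 kb away, whose touching FLAG regions are printed above, over 1400 and 1750 bp, and none of these 3 was called after 4-OHT. The member 29.99 kb away went from 1700 and 2550 bp to 200 and 575 bp, and that at 211 kb from 1325 and 1975 bp to 675 and 1050 bp. Among the other guidance genes, *Slit3* had 2 wide members that were called in all 4 lists, the wider over 3050, 3050, 2150 and 2500 bp. In the Wnt pathway, the member at chr14:29230026-29232425 in an intron of *Erc2*, 85.5 kb upstream of *Wnt5a*, was covered over 650 and 2400 bp in the controls and not called after 4-OHT. *Tcf7l1*, a transcriptional repressor of Wnt targets, had an intronic member covered over 3500, 3725, 3000 and 3000 bp. At *Runx1*, a regulator of blood formation, an intronic member covered over 500 and 1225 bp in the controls was not called after 4-OHT.

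The 10 widest members missing from both 4-OHT lists were covered over 425 to 3075 bp in control replicate 1 and 2475 to 3600 bp in control replicate 2. The widest, an intergenic region 204 kb from *Cdc5l*, was covered over 3075 and 3600 bp in the controls. The next were near *Cryaa* (1625 and 2975 bp), *Tmem222* (1800 and 2850 bp), *AI848100* (1975 and 2750 bp) and *4921513I03Rik* (1725 and 2725 bp). A member 244 kb from *Tbx3*, a T-box factor of pluripotent and mesodermal cells, was covered over 1125 and 2550 bp. The others lay near *Mybphl*, *Fam43a*, *Cdkn2aip* and *Exoc6b*. The 5 widest members called in both 4-OHT lists lay at *Mcl1*, an inhibitor of apoptosis, and at *Ppp4r4*, *Zfhx3*, *Trim71* and *Amigo2*. The *Mcl1* member was covered over 8100 and 7900 bp in the controls and 8175 bp in both 4-OHT replicates, and its FLAG evidence was a region of 25 bp.

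Repressive marks were rare over members in both conditions. H3K27me3 regions overlapped 7, 10 and 10 members in the control replicates and 4, 9 and 8 after 4-OHT (mean difference -2.00, two-sided exact permutation test, p = 0.5, where 3 against 3 cannot go below 0.1). In any of the 6 lists there were 15 such members (0.733%), against a background of 0.51% of all distal regions. Suz12 regions overlapped 4 and 1 members in the controls and 2 and 8 after 4-OHT (mean difference 2.5, two-sided exact permutation test, p = 0.667), and without 4-OHT replicate 2 the difference was -0.50. In any of the 4 lists there were 9 (0.440%), against 0.273%. The Suz12 difference was within the spread between replicates. The H3K27me3 lists were taken as paired by replicate number, and the number of members was lower after 4-OHT in all 3 pairs, by differences of -3, -1 and -2 (mean -2.00 ± 1.00, SD, n = 3, exact sign-flip permutation test, two-sided, p = 0.25, the smallest that 3 pairs allow). Genome-wide the H3K27me3 lists were also shorter after 4-OHT, with 16959, 8798 and 8977 regions in the controls and 10394, 7872 and 6787 after 4-OHT. The Suz12 lists held more regions after 4-OHT, with 2951 and 2913 in the controls and then 3654 and 4016. They covered 3.68 and 4.07 Mb in the controls and 3.58 and 4.77 Mb after 4-OHT, so the covered lengths overlapped. Whether the changes at members follow these list sizes was not tested.

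The members with H3K27me3 in 2 or more replicates of a condition lay near 8 genes. At *Hand2*, a cardiac regulator, the member 5.88 kb upstream carried H3K27me3 over 1275, 1975 and 1725 bp in the controls and 1250, 1975 and 1975 bp after 4-OHT, while H3K27ac covered 1525 and 1975 bp and then 1325 and 1725 bp. At *Gata6*, an endoderm and heart regulator, the member 3.82 kb downstream carried H3K27me3 over 400, 2125 and 2625 bp in the controls and 825, 2200 and 3425 bp after 4-OHT. Both marks were thus called within the same member in these bulk cultures. At *Tet3*, a methylcytosine dioxygenase, H3K27me3 covered 225, 775 and 600 bp in the controls and 0, 250 and 0 bp after 4-OHT, so the groups overlapped. The remaining members of this kind, near *Tmem174*, *Creb3l1*, *Plekho1*, *Klf4* and *Nkd1*, and a second one at *Gata6*, were covered by H3K27me3 over at most 650 bp in any replicate.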

How the data were processed

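Mesoderm precursors were assayed by ChIP-seq in 28 samples, of which 11 were inputs. For each of the other 17 the authors deposited 1 list of enriched regions giving chromosome, start and end on mm9, with no score, signal or read count. Per the labels and the study's methods, reads were aligned with Bowtie and regions were called in each replicate against input with a Poissonian model, at p 1e-06 and at least 2-fold enrichment for FLAG and at p 1e-12 for the other targets. The samples held 1 input per condition for H3K27ac and for Suz12, 2 per condition for H3K27me3 and 3 for FLAG. Replicates of H3K27ac and Suz12 thus had no separate inputs, and the spread between them does not hold variation between inputs. Depth is unknown, so a lost region means one that no longer passes this threshold, which depends on depth and on region width.

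Regions were joined when they shared 1 bp. TSSs were the 86842 positions of all GENCODE vM1 transcripts (NCBIM37, equal to mm9), and members lay over 2.5 kb from each. Introns, exons and nearest protein-coding genes came from the same annotation, and sequences from the NCBIM37 genome. Brg1-bound regions numbered 2390. Shares still called were counted at 1 bp of overlap and also compared within 10 width groups, where the differences were weighted by the number of members. Numbers of members with H3K27me3 or Suz12 per replicate were compared by two-sided exact permutation tests, covered lengths of H3K27ac are given without a test because the control lists chose the members, and single shares have 95% exact binomial intervals. Replicates are biological per the labels.

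The members, gene lists, motifs and width groups were chosen with earlier results of these data known. Named members were the widest of each list, the 10 widest lost and 5 widest kept, those within 100 kb of 5 genes, those nearest to a limit, those with FLAG replicate 3 or repeated H3K27me3, and those at the genes with most members. The 5 *Cxcr4* and 4 *Eomes* members are given in full, a choice made after their values were seen. One region just under the distance limit is not reported here. Sequences printed are FLAG regions of at most 300 bp, few of those available.

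Pairing of control and 4-OHT lists by replicate number is not stated in the labels and was judged from the data, by correlating how same-numbered lists depart from the mean of their condition. The H3K27me3 correlations were 0.932, 0.875 and 0.796, and these lists were taken as paired. Class and overlap were recovered for 100% of 3000 simulated regions. Python 3.11.15, NumPy 2.4.6, SciPy 1.17.1, pandas 2.3.3 and Matplotlib 3.10.9 were used.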

Additional observations from a re-analysis of the deposited data

How the results depend on the processing

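The number of members ran from 1469 with FLAG regions of 100 bp or more to 2591 without control H3K27ac replicate 1, and the ratio of H3K27ac covered length, 4-OHT to control, from 0.428 to 0.598 over 16 alternatives, all of which choose regions by the control lists, so that its direction says nothing of stability. The mean share of members still called, 57.8%, was 34.1% when at least 50% of the control region had to be covered, between 45.8% and 63.4% with 1 replicate left out, and 45.8% without control H3K27ac replicate 1. The difference from enhancers without FLAG within width groups, an addition made after the data were seen, was -21.3 points under the 50% rule, and -17.5 to -11.5 points with 1 replicate left out. It was below 0 under all 17 alternatives. These share most of their lists and all choose regions by the FLAG and control H3K27ac lists, so the common sign is not a measure of stability. The cause of these shifts was not tested. With 1 list left out, the Suz12 difference ran from -0.50 to 5.50 members and was reversed to -0.50 without 4-OHT replicate 2. Median GC content was 48.3% at the region centre and 47.0% at the FLAG region.

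With the replicate number as a block, exact sign-flip permutation gave a paired covered-length ratio of 0.527 (not read as a test, since the control lists chose the members), an H3K27me3 difference of -2.00 (p = 0.25, the smallest for 3 pairs) and a Suz12 difference of 2.5 (p = 1, where 2 pairs cannot go below 0.5). No call was possible with or without the block in groups this small. The deviations of same-numbered lists correlated at 0.418 for H3K27ac and 0.444 for Suz12, where 2 pairs share only a number. The lists hold no depth, so a region under the threshold cannot be told from one that is absent.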
